A study of Mus musculus with 2 samples.

Results

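The long intron of the mouse gene Sfmbt2 carries a dense array of miRNA genes of the miR-297, miR-466, miR-467 and miR-669 families, and their counted reads in the embryonic forebrain are described here. Members were all miRNA genes among the counted genes that lie inside Sfmbt2 on chromosome 2 and on its plus strand. Positions were the coordinates of GENCODE M21 on mm10. The rule uses no levels, although it was set with earlier results of these data known. It gave 107 members of 1973 counted genes. By symbol, 20 belong to miR-466, 20 to miR-669, 14 to miR-467 and 5 to miR-297, and 48 carry a Gm symbol with no family name. M21 places 12 more miRNA genes in Sfmbt2, 9 of them copies of Mir669a, that were not among the counted genes.

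Small RNA was sequenced from forebrain of B6NCrl mouse embryos at 10.5 days, both sexes pooled, in 1 group of 2 libraries with no treatment or engineered allele named in the labels. Replicate 1 pooled 69 embryos and replicate 2 pooled 51. Reads counted to genes, on the gene's own strand, numbered 3256070 in replicate 1 and 3574530 in replicate 2. A further 2577249 reads in replicate 1 and 2780180 in replicate 2 mapped to several places and were tallied apart from the genes. Marker miRNAs of the forebrain and neural progenitors summed to 20412 and 17813 CPM in replicates 1 and 2. CPM are counts scaled to a gene total of 1000000. Mir92b alone gave 19407 and 17048 CPM. All 9 listed genes of the table had a count, and 8 had at least 10 in both libraries. Mir124a-1, Mir124a-2 and Mir124a-3 stayed between 0.921 and 5.04 CPM in either library.

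A miRNA is cut from a hairpin in a longer transcript and guides Argonaute to messenger RNAs that pair with its seed, bases 2 to 8 of the mature strand. Sfmbt2 encodes a Polycomb group protein with MBT repeats. The gene is known as imprinted in the mouse, with expression from the paternal chromosome in the extraembryonic tissues, and its intronic miRNAs are rodent specific and best known from the placenta and from embryonic stem cells. The array grew by tandem duplication, so many of its hairpins are near-copies of each other.

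The members sit together in a single intron of the host. Sfmbt2 (ENSMUSG00000061186.15) occupies positions 10370510 to 10595253 of chromosome 2 on the plus strand of mm10, and all 107 members lie in the intron from 10461473 to 10523944, which is 62.5 kb long and separates exons 10 and 11 of one full-length isoform and exons 11 and 12 of another. The first member starts at 10465287, which is 94.8 kb from the start of the host, and the last ends at 10518279. Member genes were 73 to 127 bases long, none overlapped its neighbour, and the median gap between neighbours was 210 bases. Of the 7 host isoforms in M21, these 2 run through the members, and the other 5 end before them. The 2 start at positions 10372450 and 10372436, and the 250 bases before the latter, chr2:10372186-10372435 on the plus strand (RefSeq, GRCm38.p6, the same assembly as mm10), are shown because the isoforms that hold the miRNA intron begin there. Capitals mark each CG.
Sfmbt2 promoter: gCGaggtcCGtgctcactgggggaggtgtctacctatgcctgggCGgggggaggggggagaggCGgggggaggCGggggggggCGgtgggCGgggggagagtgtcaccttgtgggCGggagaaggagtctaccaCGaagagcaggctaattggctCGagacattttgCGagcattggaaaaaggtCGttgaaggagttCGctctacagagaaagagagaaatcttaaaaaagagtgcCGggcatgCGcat
This window held 15 CG on the plus strand. Of 32851 RefSeq promoter windows of the same length, 27.3% held at least as many, and the median was 6. The small RNA counts do not measure the activity of this promoter.

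The same families also have genes elsewhere in the genome, and these gave almost no counted reads. Of 10 such genes, Mir466q on chromosome 3 had 3 counts in replicate 1 and 1 in replicate 2, or 0.601 ± 0.454 CPM (SD, n = 2). The other 9 (Mir297-1, Mir466f-4, Mir466i, Mir466j, Mir466k, Mir467f, Mir467g, Mir467h and Mir669n) had no count in either library. For a gene at 0 the depth allows as many as 3 counts, equal to 0.921 CPM at the depth of replicate 1 and 0.839 CPM at that of replicate 2. These limits hold for reads assigned to a gene. They set no limit on reads that mapped to several places, which matters for genes such as Mir466f-4 whose name has further loci. The mature sequences of 8 of these genes were matched by symbol in the RefSeq table (GRCm38.p6) and are shown 5′ to 3′, since they display the alternating repeats of UG or AC that mark these families. Capitals mark the seed.
miR-466q: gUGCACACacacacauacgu
miR-466i-3p: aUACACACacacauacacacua
miR-466j: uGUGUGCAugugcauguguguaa
miR-466k: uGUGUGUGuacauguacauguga
miR-467f: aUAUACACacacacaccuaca
miR-467g: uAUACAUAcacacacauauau
miR-467h: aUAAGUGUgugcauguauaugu
miR-669n: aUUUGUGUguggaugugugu
No seed was shared among these 8 sequences. Each gene is shown with a single mature sequence, so a seed on the other strand of its hairpin was not compared. The 10 genes outside Sfmbt2 thus held 4 counts in both libraries together, against 37588 for the members.

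The cluster had 16436 counts in replicate 1 and 21152 in replicate 2. That was 0.505% of the gene counts in replicate 1 (95% exact Clopper-Pearson interval 0.497 to 0.513) and 0.592% in replicate 2 (0.584 to 0.600), or 0.548% ± 0.061 (SD, n = 2). The intervals did not overlap between the libraries, but they hold for counting error alone, because PCR copies of a molecule are counted separately. No member had a read on the opposite strand in either library. This was common, since 91.4% of the 385 genes with at least 10 counts in both libraries had no opposite-strand read either.

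Few members accounted for nearly all of these counts. At least 10 counts in both libraries were found for 11 of 107 members (10.3%), against 19.5% of all 1973 genes. A further 24 members had some counts, and 72 (67.3%) had no count in either library, against 62.5% of all genes. Mir467c, Mir467d and Mir467e together held 79.7% ± 0.34 of the counts of the cluster, and with Mir669o and Mir669l 96.0% ± 0.37 (SD, n = 2). The miR-467 family held 79.9% ± 0.39, miR-669 19.1% ± 0.40, miR-466 0.853% ± 0.016 and miR-297 0.0824% ± 0.0297. The 48 Gm members held 0.0872% ± 0.0372.

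**Figure D1:**
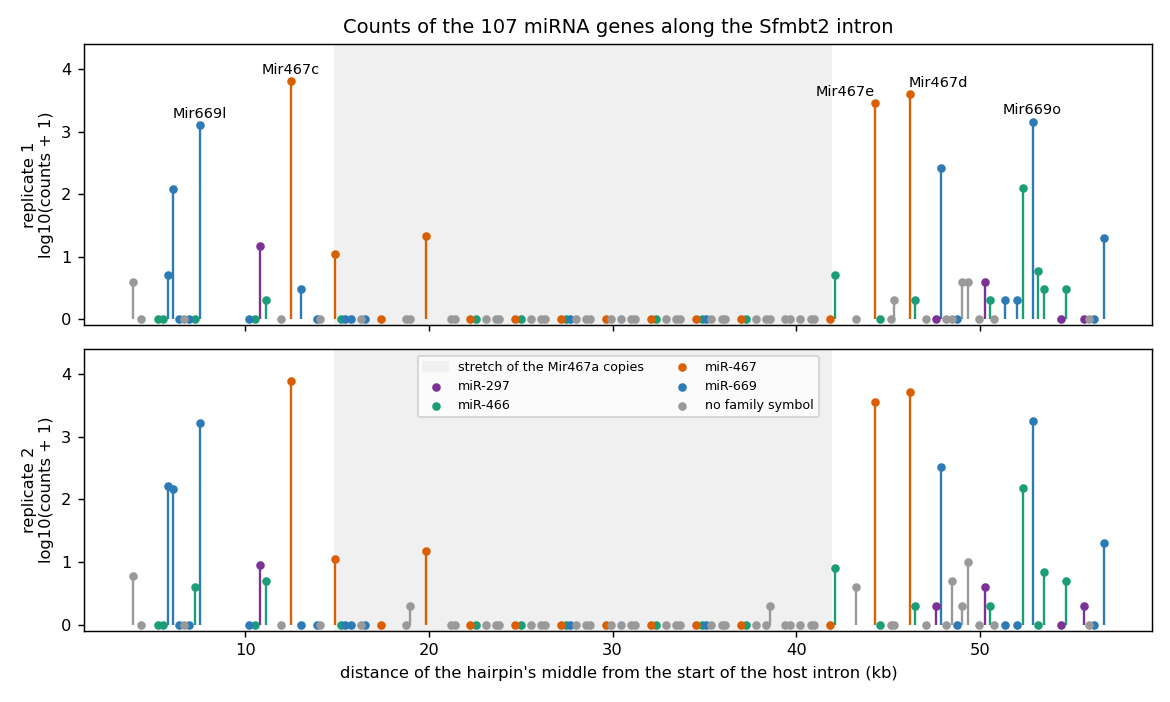
Counts of the 107 members along the intron, replicate 1 above and replicate 2 below. The horizontal axis is the distance of each hairpin from the start of the intron in kb, the vertical axis log10(counts + 1), colours give the family, and the grey band is the stretch from the first to the last Mir467a copy. The tall members stand on either side of the band. Within the band 51 of 55 members had no count, and reads that mapped to several places are not included.

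Among the miR-467 genes, Mir467c was the most abundant member, with 6356 counts in replicate 1 and 7893 in replicate 2, or 1952 and 2208 CPM. It occupies 10473931 to 10474027 and ranked at place 78 of the 1973 genes by mean CPM. Mir467d, at 10507630 to 10507714, had 3948 and 5314 counts, or 1213 and 1487 CPM. Both values lay below the lower value of Mir467c, so the groups of values did not overlap. Mir467e, at 10505721 to 10505807, had 2841 and 3607 counts, or 873 and 1009 CPM, below both values of Mir467d. The ratio of Mir467c to Mir467d was 1.61 in replicate 1 and 1.49 in replicate 2, and that of Mir467d to Mir467e was 1.39 and 1.47.

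Mir467b had 20 and 14 counts, or 6.14 and 3.92 CPM, and Mir467a-1 had 10 and 10 counts, or 3.07 and 2.80 CPM. Mir467e had 142 times the counts of Mir467b in replicate 1 and 258 times in replicate 2. These ratios hold for counted reads only. Mir467b lies among the Mir467a copies, and reads that mapped to several places were left out, so its counts may be a lower limit. The other 9 copies of Mir467a, Mir467a-2 to Mir467a-10, had no count. The 10 copies give the same name to their miRNA, so a read of it that fits several of them was tallied as mapping to several places, and the level of Mir467a cannot be read from these counts.

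Of the miR-669 genes, Mir669o (10514300 to 10514395) had 1424 and 1781 counts, or 437 and 498 CPM. Mir669l (10468971 to 10469068) had 1255 and 1658 counts, or 385 and 464 CPM. Mir669o was higher than Mir669l by a factor of 1.13 in replicate 1 and 1.07 in replicate 2, although their values overlapped across the libraries. This difference was not tested. The genes lie 45.2 kb apart. Mir669c (10509296 to 10509404) had 265 and 329 counts, or 81.4 and 92.0 CPM, lower than Mir669l by a factor of 4.74 in replicate 1 and 5.04 in replicate 2. Mir669e (10467495 to 10467613) followed with 121 and 147 counts, or 37.2 and 41.1 CPM.

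Mir669f (10467229 to 10467349), the nearest neighbour of Mir669e, was the member whose libraries differed most, with 4 counts in replicate 1 and 165 in replicate 2, or 1.23 and 46.2 CPM. Its mean of 23.7 CPM had an SD of 31.8 and describes neither library. Mir669h, the last member of the array, had 19 and 19 counts, or 5.84 and 5.32 CPM.

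The single miR-466 gene with at least 10 counts in both libraries was Mir466n (10513741 to 10513834), with 126 and 152 counts, or 38.7 and 42.5 CPM. These values overlapped those of Mir669e. The other 19 miR-466 members had at most 11 counts in both libraries together, the highest being Mir466b-3 with 4 and 7, chosen after its values were seen. Among the miR-297 genes Mir297a-2 had 14 and 8 counts, or 4.30 and 2.24 CPM, and the rest had at most 6 counts in both libraries. The Gm member with the most counts was Gm22925, also chosen after its values were seen, with 3 and 9.

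**Figure D2:**
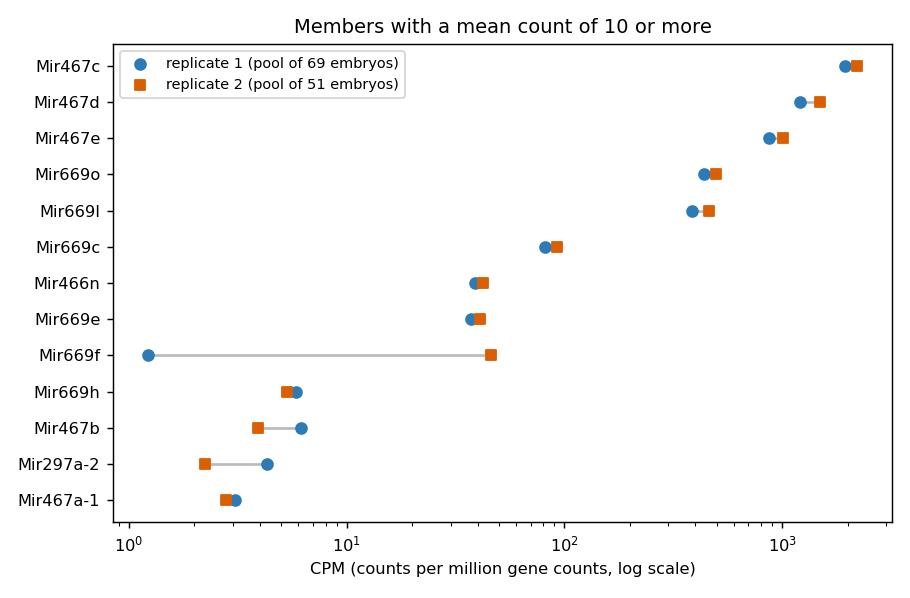
Level of the 13 members whose mean count was at least 10, in CPM on a log scale, with a circle for replicate 1, a square for replicate 2 and a line between them. Mir467c, Mir467d and Mir467e lie apart from each other, Mir669o overlaps Mir669l, and the line of Mir669f runs from 1.23 to 46.2 CPM.

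From Mir467c down to Mir466n the order was Mir467c, Mir467d, Mir467e, Mir669o, Mir669l, Mir669c and Mir466n. The values of neighbours in that order did not overlap across the libraries, except those of Mir669o and Mir669l. Below Mir466n, each member overlapped the next one in the order by mean CPM. Small RNA reads cover a mature miRNA whole, so levels were not divided by hairpin length. Dividing them left the order of the 9 highest members as it was and changed places only within Mir669h, Mir467b, Mir297a-2 and Mir467a-1.

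The counted reads lay in both flanks of the array and hardly at all in its middle. The stretch from the first to the last Mir467a copy, 10476346 to 10503355, is 27.0 kb long, and its Mir467a genes follow each other at a median distance of 2462 bases from start to start. It holds 55 of the members, of which 4 had any count. They were Mir467a-1, Mir467b, Gm25451 and Gm25316, the last pair with 1 count each and chosen after their values were seen. This stretch gave 30 counts in replicate 1 and 26 in replicate 2, or 0.153% ± 0.042 of the counts of the cluster. The 20 members before it held 47.0% ± 0.33, led by Mir467c and Mir669l, and the 32 members after it 52.9% ± 0.37, led by Mir467d and Mir467e (SD, n = 2). Of the 55 members of the stretch, 20 have a name with several loci, 32 a Gm symbol and 3 a single locus name. Genes that were not counted, such as Mir466e and Mir669a-4, also lie in it. Reads that mapped to several places are not in these counts, so the low share does not show that the stretch is silent. The bounds of the stretch were chosen after the counts were seen.

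Members named as 1 of several copies seldom reached 10 counts. For 33 members M21 lists the name at several loci, and all but Mir669d (the partner of Mir669d-2) carry a copy number, as in Mir467a-3. These numbered copies had 61 counts in both libraries together, and 1 of them, Mir467a-1, reached 10 in each. The 26 members with a family name of a single locus had 37493 counts, and 10 of them reached 10 in each. Their median was 6 counts in both libraries together, against 0 for the numbered copies and 0 for the 48 Gm members. On the log2 scale with a pseudocount of 1 CPM the medians were 0.91 for single names and 0 for numbered copies. Outside the stretch of the Mir467a copies, 9 of 23 single-name members reached 10 counts in each library and 0 of 13 numbered copies did, although 7 of these 13 had at least a single count. Inside it, 1 of 3 and 1 of 20 did.

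Names with many copies had few counts. Mir466b, with 8 loci in M21, had 4 and 7 counts over its 7 counted copies. Mir669a, with 12 loci in M21, had 2 and 0 counts over its 3 counted copies. The levels of names with several loci are lower limits. Copies were recognised by symbol and not by sequence, so the levels of single names and Gm members may be lower limits too. The shares of the families given above hold for counted reads. How many of the reads tallied as mapping to several places came from the Sfmbt2 intron was not measured. The counted reads of the cluster equalled 0.638% of that tally in replicate 1 and 0.761% in replicate 2.

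**Figure D3:**
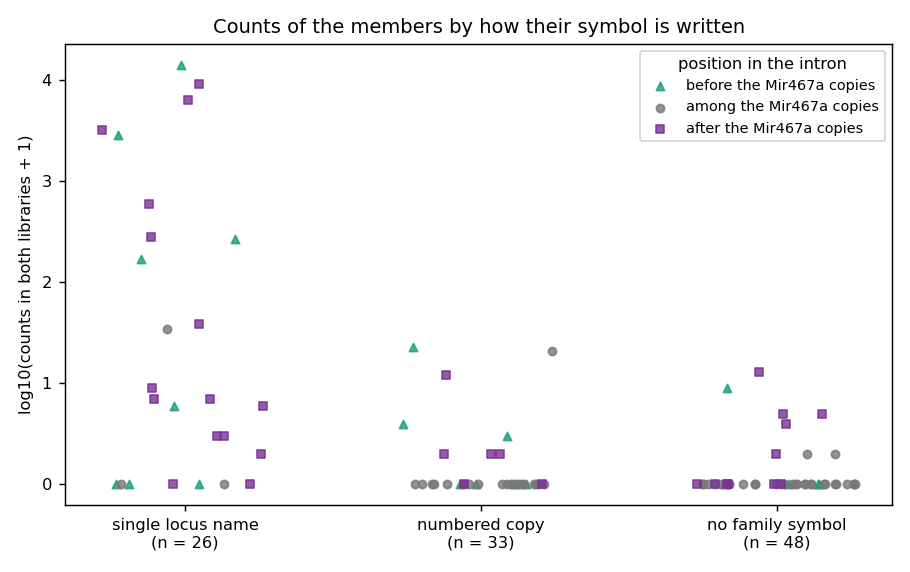
Each point is a member, placed by how its symbol is written (single locus name, numbered copy, no family symbol) against log10(counts in both libraries + 1), with small sideways scatter and a marker for its position relative to the Mir467a copies. Members above 100 counts all carry a single locus name and lie outside the stretch of the Mir467a copies.

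The 2 forebrain pools were then compared for the members with enough counts. An exact binomial test, two-sided, asked whether the counts of a gene split between the libraries as their TMM-scaled sizes do, with Benjamini-Hochberg adjustment over the 401 genes whose mean count was at least 10. It measures counting error alone, with 1 library on each side, and so says nothing about a condition. Of the 107 members 13 entered it. It called 6 of them (46.2%), and 43.4% of all genes tested, so the share of members called was near the background. All 6 were lower in replicate 1, a direction in which 23.7% of all genes tested were called, and 0 were higher, against 19.7%. The median log2 ratio of replicate 1 over replicate 2 was −0.21 over the 13 members and −0.03 over all genes tested.

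Mir467c was lower in replicate 1 by a log2 ratio of −0.21 (95% exact interval −0.26 to −0.16, adjusted p = 5.7e-17, exact binomial test). Mir467d stood at −0.32 (−0.38 to −0.27, adjusted p = 4.9e-26, exact binomial test) and Mir467e at −0.24 (−0.31 to −0.17, adjusted p = 1.4e-10, exact binomial test). The 3 leading miR-467 genes thus differed between the pools in the same direction. The interval of Mir467e overlapped those of both others, while the intervals of Mir467c and Mir467d did not overlap. Mir669l had a log2 ratio of −0.30 (adjusted p = 1.4e-07, exact binomial test) and Mir669o one of −0.22 (adjusted p = 7.1e-05, exact binomial test), so these differences were also beyond counting error.

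Mir669f had a log2 ratio of −5.10 (−7.16 to −3.88, adjusted p = 2.4e-40, exact binomial test), the lowest of all 401 genes tested. The size of this ratio rests on the 4 counts of replicate 1, and with a pseudocount of 5 counts in place of 0.5 it was −4.14. Its interval lay far from that of Mir669e, 145 bases away, whose ratio was −0.18 (−0.54 to 0.18, adjusted p = 0.51, exact binomial test). Without Mir669f the median ratio of the members was −0.19.

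The remaining 6 members were not called. Mir669c (−0.21) and Mir466n (−0.17) had ratios close to those of the called members, with intervals of −0.45 to 0.03 and −0.52 to 0.18 that include 0. Mir669h and Mir467a-1 had 0.10 each, Mir467b 0.60 and Mir297a-2 0.87. Each of these last 4 had at most 20 counts in a library, and a difference of the size seen in Mir467c was not detectable at that depth.

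**Figure D4:**
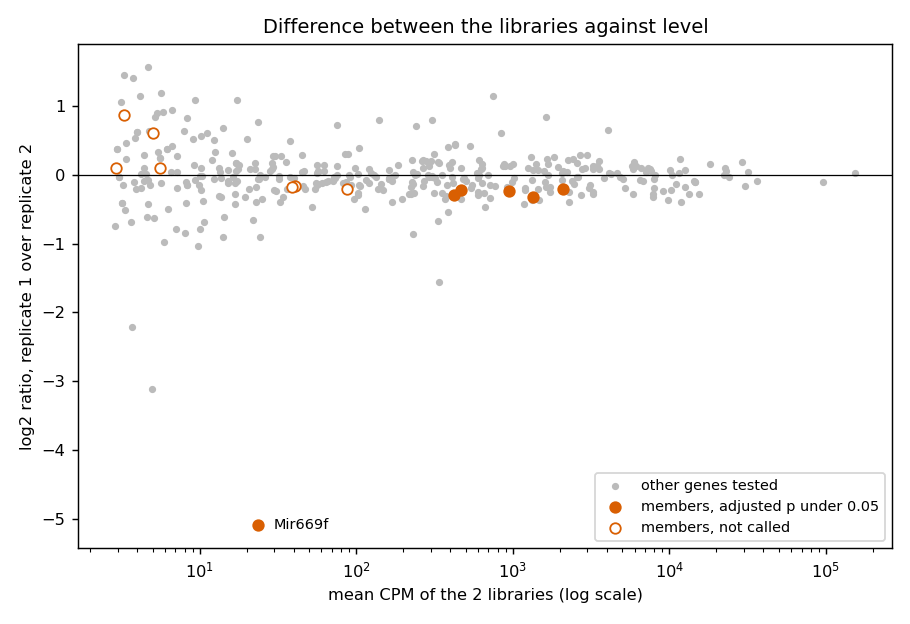
Log2 ratio of replicate 1 over replicate 2 against mean CPM (log scale) for the 401 genes tested, grey for other genes, filled orange for members called by the exact binomial test and open orange for members not called. The 5 most abundant members lie between −0.32 and −0.21, and Mir669f lies apart at −5.10.

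Marker miRNAs of other cell types moved between the same libraries. Hindbrain and trunk markers summed to 245 CPM in replicate 1 and 309 in replicate 2. All 6 had a count, and 5 had at least 10 in both libraries. The endothelial marker Mir126a was at 29029 and 31930 CPM. Both this marker and the hindbrain and trunk sum were lower in replicate 1, as the cluster was. Of the hindbrain and trunk genes, Mir196a-1 and Mir196a-2 were not lower in replicate 1, at 0.614 and 0.280 CPM and at 7.37 and 6.99 CPM. Red blood cell markers summed to 693 and 792 CPM (3 of 3 with at least 10 counts in both libraries), and this difference came from Mir451a, at 601 and 707 CPM. Mir144 was at 59.9 and 53.2 CPM and Mir486 at 32.2 and 31.9 CPM, slightly higher in replicate 1. The forebrain and progenitor list was higher in replicate 1, and most of its sum was Mir92b, at 19407 and 17048 CPM. Mir124a-1 (0.921 and 1.12 CPM) and Mir124a-2 (4.61 and 5.04 CPM) were lower in replicate 1. The list of embryonic stem cells and trophoblast, the miR-290 cluster, was at 333 and 335 CPM. All 6 of its genes had a count, and 5 had at least 10 in both libraries. No marker in the table was at 0 in both libraries. Their part in the lower cluster level of replicate 1 was not tested, and in bulk tissue fewer cells of a type and less miRNA per cell cannot be told apart.

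For comparison, the Mir379 to Mir410 stretch of the imprinted Dlk1-Dio3 region on chromosome 12, another large tandem array, had at least 10 counts in both libraries for 30 of its 33 counted genes, and held 7.88% ± 0.89 of the gene counts. Its genes had a median log2 ratio of −0.23, with 25 of 30 called lower in replicate 1 and 0 higher. The miR-17-92 cluster had 10 counts in both libraries for 6 of 6 genes and held 15.8% ± 0.49 (SD, n = 2). Its median log2 ratio was −0.10, with 3 called lower and 1 higher. Of all genes tested, 23.7% were called lower and 19.7% higher. Among genes with a mean count of at least 100, 60.1% were called in either direction. These values come from the same 2 libraries, and differences between the clusters were not tested. They leave out reads that mapped to several places, so the counts of the Sfmbt2 members, many of them near-copies, are lower limits. How many such reads came from each array was not measured.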

How the data were processed

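The authors deposited raw, unnormalized counts for each gene in 3 columns, for both strands together, for the gene's own strand and for the opposite one. Only the gene's own strand was used unless stated. Per the labels and the deposited file notes, the assembly was mm10, the gene annotation M4 and the fragments shorter than 30 nt. Aligner, trimming and counting software: not given in the sources used here. The tallies of reads counted to no gene (unmapped, mapped to several places, on no gene's own strand) stayed out of library sizes. The last of these includes reads on the opposite strand of a gene. They held 24.6% and 25.4%, 30.1% and 28.8%, and 7.28% and 8.82% of the reads of replicates 1 and 2.

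Symbols and positions came from GENCODE M21, in which 1894 of 1973 identifiers were found. The other 79, with 8 counts in all, have no position here. Counts were scaled to CPM on the gene total. TMM factors (edgeR 4.0.16, R 4.3.3) and DESeq2 1.42.0 size factors came from the 401 genes whose mean count was at least 10, and log2 ratios used a pseudocount of 0.5 counts. Other steps used Python 3.11.15 with pandas 2.3.3, scipy 1.17.1, numpy 2.4.6 and, for figures, matplotlib 3.10.9. The binomial test was tested on simulated counts with known changes and counting error alone. That simulation held no further spread between libraries, so it does not cover the spread of the real ones. The libraries were not copies of each other, since a chi-square statistic over genes was 47.1 times its 464 degrees of freedom. The labels number the libraries as biological replicates from separate pools.

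Members and lists were chosen with earlier results of these data known. Every member with a mean count of at least 10 is named, and other members by range. Alternatives covered scaling, filter, pseudocount, strand, denominator and each library alone. Copies of a miRNA were recognised by symbol.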

Additional observations from a re-analysis of the deposited data

How the results depend on the processing

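The 6 calls among the members and their direction held with total gene counts, with DESeq2 size factors, with reads on either strand and with no filter. With no filter they were 17.1% of 35 tested members, against 22.5% of all 739 genes tested. At a mean count of 100, a filter that leaves out Mir669f, 5 of 8 members were called (62.5%), against 60.1% of all 271 genes. The ratio of Mir669f was −4.14 with a pseudocount of 5 counts, against −5.10. The median log2 ratio of the members lay between −0.22 and −0.18 over these settings, a pseudocount of 5 counts and the omission of Mir669f. With total gene counts or DESeq2 size factors, 84 genes were called lower in replicate 1 and 93 higher. The cluster share was 0.505% without replicate 2 and 0.592% without replicate 1, 0.274% of all mapped reads, and 0.340% without its most abundant member. Asking for 1 count in both libraries counted 23 members in place of 11. With a pseudocount of 0.1 CPM the median log2 levels were −0.039 for single names and −3.32 for numbered copies, a shift set by the pseudocount. The other 43 of 48 alternative values of the main results, and 73 of 73 for single members, kept their direction and their side of the threshold or moved by less than the spread. For the shares, leaving out a library always moves the mean of 2 by less than its SD, so those alternatives could not come out otherwise. Nor could the family shares on either strand, since no member had an opposite-strand read. A pseudocount of 5 counts does not enter the binomial test, so it could not change an adjusted p. Library ratios could not be computed without either library. A copy count by mature sequence was not run, and per-length levels were chosen after seeing the data. No paired analysis was possible because there is 1 group.

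Tested members with fewer than 20 counts in a library had intervals wider than the differences called in the abundant members. So did Mir669c, Mir669e and Mir466n, with 121 to 329 counts in a library. Depth limits what can be said of all these members, although Mir669f was called.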
